A study of Oryza sativa with 18 samples.

Results

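Coleoptiles that had spent 3 d without oxygen and then 1 d in air were compared with coleoptiles kept in nitrogen for all 4 d. The comparison used 6 of the 18 libraries of the study, 3 per group, in every region of the 3 deposited tables of differentially methylated regions: the re-aeration table with 902 regions, the oxygen table with 2131 and the dry seed table with 5908. The organism was wild-type rice (Oryza sativa cultivar Amaroo). De-hulled, sterilised seeds were germinated in the dark at 30 °C in a buffered medium through which nitrogen gas or air was bubbled, and whole coleoptiles were taken. The nitrogen group stayed in nitrogen for 4 d. In the re-aeration group the gas was changed to air after 3 d and the coleoptiles were taken 1 d later. The other groups, used only beside these, were coleoptiles after 4 d in air, embryos dissected from dry seeds (0 h), and embryos after 24 h in air or in nitrogen, each with 3 libraries. The labels say that the primary leaf was removed from coleoptiles grown in air. They do not say whether the re-aerated coleoptiles were treated in this way, so a change within cells and a change in the mixture of cells cannot be told apart in these whole-organ samples.

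The coleoptile is the sheath around the young leaf, and rice is known for elongating it under water without oxygen, while growth of the root and leaf waits for air. In plants, cytosines are methylated in the contexts CG, CHG and CHH, where H is any base but G. A maintenance methyltransferase copies CG methylation after replication, chromomethylases maintain CHG and part of CHH methylation, and small RNAs guide de novo methylation of CHH sites, often at short transposons. Methylation is lost when replication is not followed by maintenance, or when DNA glycosylases cut out the methylated base.

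MethylC-seq is a bisulfite sequencing method in which unmethylated cytosines are read as thymine. A methylation level is the percent of the deposited reads of a region and library that were methylated, used where a region had 10 or more reads, and differences are in percentage points, re-aeration minus nitrogen. The 3 tables differ in how the authors picked their regions. The re-aeration table was picked on nitrogen against re-aeration, the contrast described here, so its counts describe the table and support nothing. The oxygen table was picked on 4 d air against 4 d nitrogen and so used the nitrogen libraries. The dry seed table was picked on 0 h embryos against 24 h embryos and used none of the 6 libraries, so there the comparison is independent of the picking. The labels do not say that libraries of a group came from separate cultures, so the p-values rest on a spread among libraries that may be technical only. Summed over its regions, a library had 131558 to 219640 reads in the re-aeration table. The ranges were 396689 to 531162 for oxygen regions and 908058 to 1436790 for dry seed regions. The depth of whole libraries is not given. Whether the reads counted molecules or cytosines is not settled, nor is the sequence context, because the column names carry CG and the names of the tables CNN. The build of the genome was not stated, so coordinates follow the authors' tables as they stand, and no region was assigned to a gene.

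In the re-aeration table most regions were poorly methylated in nitrogen and well methylated after re-aeration, and a small set did the opposite. Over the 888 regions with 10 or more reads in all 6 libraries, the mean level was 19.8%, 20.7% and 19.7% in the nitrogen libraries and 66.3%, 66.5% and 67.7% in the re-aeration libraries. The groups did not overlap, as in 794 single regions where every re-aeration library was above every nitrogen library (89.4%) and 58 where every one was below (6.53%). The means were 20.03% ± 0.544 (SD, n = 3) and 66.8% ± 0.759 (SD, n = 3), a difference of 46.8 points. An exact two-sided permutation test over libraries gave p = 0.1, the smallest that 3 against 3 allows. Region by region, a quasi-binomial model of the read counts called a region where the Benjamini-Hochberg adjusted p was under 0.05 and the groups differed by at least 10 points. It called 818 of 901 tested regions higher after re-aeration, which is 90.8%, and 61 lower, which is 6.77%. As the authors picked these regions on the same libraries, nothing is read from these shares.

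**Figure D1:**
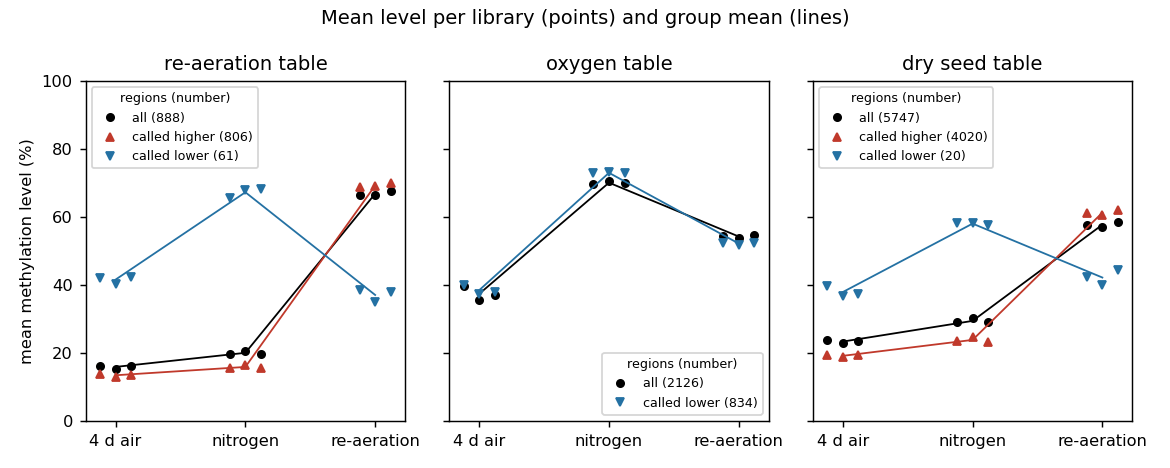
Mean methylation level (%, y axis) of each library in 4 d air, 4 d nitrogen and re-aeration (x axis), in 3 panels for the re-aeration, oxygen and dry seed tables; points are libraries, lines join group means, and the number of regions with 10 or more reads in all 6 compared libraries is in the legend. Regions called higher sit between 15.6% and 24.6% in the nitrogen libraries of the re-aeration and dry seed tables and between 60.6% and 70.1% after re-aeration.

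The gains mostly went from a low level to a level of 50% or more. The median level of the 818 gained regions was 12.1% in nitrogen and 70.5% after re-aeration, and the median difference was 53.9 points, from 15.2 to 93.2. In nitrogen 231 of them were under 5%, and after re-aeration 756 were at 50% or more and 175 at 80% or more. Among regions with 30 or more reads in every library, the widest gain lay at chr7:25616617-25616673, 57 bp long. Its level was 1.45%, 4.05% and 0% in the nitrogen libraries and 93.9%, 92.5% and 92.8% in the re-aeration libraries. The groups were far apart and the re-aeration libraries nearly equal. The difference was 91.2 points (adjusted p = 1.87e-05 in the quasi-binomial model), with 69 to 74 reads per nitrogen library and 255 to 286 per re-aeration library. In 4 d air the same region stood at 2.35% ± 1.496 (SD, n = 3).

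Gains also occurred on regions that nitrogen left partly methylated. At chr7:28341298-28341349 the nitrogen libraries had 15.1%, 12.03% and 41.4% and the re-aeration libraries 90.6%, 93.6% and 98.4%. The nitrogen libraries were spread widely, with library 3 far above the others, but stayed below every re-aeration library. The difference was 71.3 points (adjusted p = 0.00156, quasi-binomial model). At chr10:7376013-7376066 the nitrogen libraries had 39.6%, 52.8% and 61.2% and the re-aeration libraries 98.9%, 91.8% and 94.0%, a difference of 43.7 points (adjusted p = 0.000741, quasi-binomial model). Here too the groups did not overlap. The longest gain, 313 bp, lay close to the start of chromosome 2, at chr2:23-335. It had 23.4%, 25.4% and 23.1% in nitrogen and 73.5%, 66.8% and 79.6% after re-aeration, a difference of 49.3 points (adjusted p = 0.000138, quasi-binomial model), on the highest read numbers of the named gains of this table, 917 to 2468 per library.

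The losses mostly stopped at an intermediate level. The 61 lost regions had a median of 68.6% in nitrogen and 37.0% after re-aeration, and the median difference was -28.6 points, from -63.2 to -12.7. After re-aeration 13 of them were under 20% and 17 were still at 50% or more. The loss at chr2:32457519-32457527, 9 bp long, was the largest that started between 50 and 80% with 30 or more reads in every library. The nitrogen libraries had 79.8%, 65.3% and 63.9% and the re-aeration libraries 13.7%, 16.6% and 23.3%. No value of the groups overlapped, and the difference was -51.8 points (adjusted p = 0.000363, quasi-binomial model). The loss at chr5:8849752-8849774 started higher, at 80.04%, 86.1% and 79.9%, and was 54.4%, 36.8% and 36.5% after re-aeration. The first of these re-aeration libraries was well above the other two, and the difference was -39.5 points (adjusted p = 0.000934, quasi-binomial model). The longest loss, 148 bp at chr8:20833712-20833859, had 42.9%, 44.9% and 44.6% in nitrogen and 24.4%, 15.2% and 21.3% after re-aeration, a difference of -23.8 points (adjusted p = 0.00075, quasi-binomial model).

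A loss from the class between 20 and 50% was the least firm of those named. At chr1:26235299-26235304, 6 bp long, the nitrogen libraries had 15.1%, 54.0% and 70.2% and the re-aeration libraries 16.6%, 18.1% and 3.02%. Nitrogen library 1 lay among the re-aeration libraries, so the groups overlapped. The difference of -33.8 points was called (adjusted p = 0.0318, quasi-binomial model), and without nitrogen library 3 it was -21.9 points (adjusted p = 0.108). The call was lost when any library but nitrogen library 1 was left out, with adjusted p between 0.0597 and 0.108 in that model.

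Beside the other coleoptiles, the gains and the losses stood in different places. Comparisons with 4 d air share libraries with this one, so the levels are given side by side only. The 818 gained regions averaged 13.4% ± 0.354 in 4 d air, 15.9% ± 0.496 in nitrogen and 69.5% ± 0.757 after re-aeration (SD, n = 3 each). Air and nitrogen were thus both low and the re-aerated coleoptiles high. The 61 lost regions averaged 41.6% ± 1.11 in 4 d air, 67.3% ± 1.53 in nitrogen and 37.1% ± 1.93 after re-aeration (SD, n = 3 each), with the re-aerated coleoptiles near the air-grown ones.

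In the oxygen table the change after re-aeration was downward and smaller. The mean level of 2126 regions was 69.7%, 70.6% and 69.9% in the nitrogen libraries and 54.3%, 53.9% and 54.6% in the re-aeration libraries. The groups did not overlap, and their means, 70.1% ± 0.483 and 54.2% ± 0.356 (SD, n = 3 each), differed by -15.8 points (exact two-sided permutation p = 0.1, the smallest possible). The quasi-binomial model called 835 of 2131 regions lower, which is 39.2%, and 0 higher. At an unadjusted p under 0.05, with no minimum difference, the model had 5 higher and 1298 lower. With an adjusted p under 0.05 and the 10 points, limma, run on the levels, called 1155 lower and 1 higher. The number called lower depended on every library. It was 324, 247 and 276 without nitrogen library 1, 2 or 3, and 271, 197 and 261 without re-aeration library 1, 2 or 3. Libraries were separated more often than regions were called: the 3 re-aeration libraries all lay below the 3 nitrogen libraries in 1446 of 2126 regions (68%) and above them in 10 (0.47%). The nitrogen libraries took part in the picking of this table as high in most regions, so a lower level elsewhere is not independent of it.

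The called losses of the oxygen table ended between the other groups. They averaged 38.5% ± 1.31 in 4 d air, 73.0% ± 0.0865 in nitrogen and 52.2% ± 0.270 after re-aeration (SD, n = 3 each). The median difference was -19.6 points, from -49.5 to -10.01. That 4 d air and nitrogen differed was fixed by the picking of this table. The 1296 regions not called also ended in between, with 36.6% ± 2.45 in 4 d air and 68.3% ± 0.727 in nitrogen. After re-aeration they stood at 55.6% ± 0.452 (SD, n = 3 each). At chr3:22587283-22587298 the nitrogen libraries had 75.3%, 85.8% and 90.0% and the re-aeration libraries 40.7%, 32.7% and 49.9%. The groups did not overlap and the difference was -42.6 points (adjusted p = 0.0387, quasi-binomial model), but the adjusted p was between 0.0651 and 0.098 when any of the 6 libraries was left out. At chr2:15803211-15803220 the values were 73.2%, 64.2% and 56.1% in nitrogen and 30.5%, 21.8% and 15.4% after re-aeration, a difference of -41.9 points (adjusted p = 0.0363, quasi-binomial model). That call was also lost when any of the 6 libraries was left out, with adjusted p between 0.065 and 0.099. The longest loss, 429 bp at chr1:26905549-26905977, was smaller and steadier, at 50.5%, 48.9% and 49.4% in nitrogen and 34.5%, 34.7% and 34.4% after re-aeration. Its libraries were almost equal within each group, and the difference was -15.1 points (adjusted p = 0.00877, quasi-binomial model) on 1467 to 2160 reads per library.

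Gains again prevailed in the dry seed table, whose picking used none of the 6 libraries. The mean level of 5747 regions was 29.1%, 30.2% and 29.0% in the nitrogen libraries and 57.6%, 57.1% and 58.4% in the re-aeration libraries. The groups did not overlap, and their means, 29.4% ± 0.645 and 57.7% ± 0.666 (SD, n = 3 each), differed by 28.3 points (exact two-sided permutation p = 0.1, the smallest possible). Of 5873 regions tested in the quasi-binomial model, 4105 were called higher after re-aeration (69.9%), 20 lower (0.341%) and 1748 neither. Leaving out any 1 of the 6 libraries gave 3679 to 3938 higher and 15 to 23 lower. The losses were less stable than their number, since only 10 to 14 of the 20 were called again in each of these fits. Of the regions with 10 or more reads in all 6 libraries, 4162 had every re-aeration library above every nitrogen library (72.4%) and 58 had the reverse (1.01%).

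The gains of the dry seed table were spread over a wider range of sizes than those of the re-aeration table. Their median level was 21.0% in nitrogen and 62.4% after re-aeration, and the difference ran from 10.3 to 94.0 points with a median of 35.8. At chr6:12307916-12307966 the nitrogen libraries had 3.07%, 8.15% and 6.51% and the re-aeration libraries 95.4%, 95.6% and 90.9%, a difference of 88.1 points (adjusted p = 3.82e-07, quasi-binomial model). Nothing overlapped there, and the dry seed stood at 93.8% ± 2.03 (SD, n = 3). At chr12:2005497-2005580 the nitrogen libraries had 19.3%, 24.3% and 17.97% and the re-aeration libraries 91.2%, 84.9% and 92.5%, a difference of 69.0 points (adjusted p = 1.66e-07, quasi-binomial model). The longest gain, 393 bp at chr5:17879262-17879654, was modest, with 28.5%, 31.0% and 30.1% in nitrogen and 48.4%, 50.3% and 51.8% after re-aeration, and a difference of 20.2 points (adjusted p = 0.000265, quasi-binomial model).

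Side by side over the 6 groups, the 4105 gained regions averaged 68.6% ± 1.67 in the dry seed, 21.8% ± 0.942 after 24 h in air, 24.2% ± 0.242 after 24 h in nitrogen, 19.01% ± 0.405 after 4 d in air, 23.7% ± 0.685 after 4 d in nitrogen and 61.5% ± 0.750 after re-aeration (SD, n = 3 each). The dry seed and the re-aerated coleoptiles were high and the other 4 groups low, and that the dry seed exceeded the 24 h groups was fixed by the picking. The 1748 regions that were not called had 42.2% ± 0.676 in nitrogen and 49.7% ± 0.631 after re-aeration (SD, n = 3 each).

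The 20 losses of the dry seed table were small. They averaged 58.0% ± 0.341 in nitrogen and 42.2% ± 2.23 after re-aeration, beside 37.9% ± 1.58 in 4 d air and 74.2% ± 1.16 in the dry seed (SD, n = 3 each), with differences from -25.1 to -10.4 points. The largest among well-covered regions, at chr4:19959966-19959975, had 58.5%, 57.3% and 55.8% in nitrogen and 14.3%, 37.6% and 44.6% after re-aeration. Re-aeration library 1 was far below the other two, all 3 were below nitrogen, and the difference was -25.1 points (adjusted p = 0.00557, quasi-binomial model, and 0.0731 with the spread of nitrogen and re-aeration alone). Calls of this kind made up 0.341% of the tested regions and depended on the fit, with 12 called lower when the spread came from the compared groups alone.

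**Figure D2:**
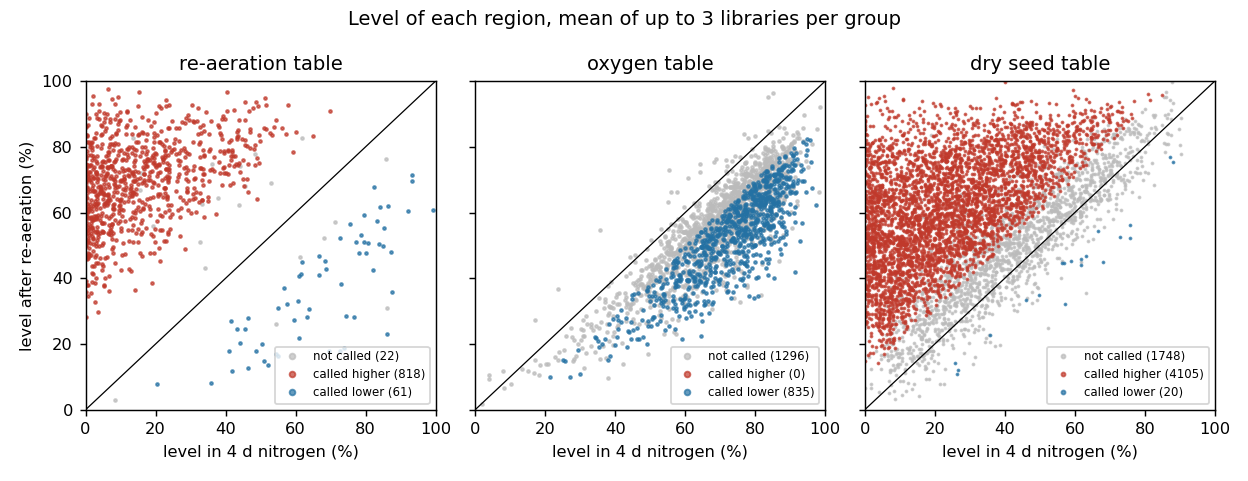
Level after re-aeration (%, y axis) against level in 4 d nitrogen (%, x axis) for each tested region, a point being the mean of the libraries with 10 or more reads, in 3 panels for the 3 tables; red is called higher, blue called lower and grey not called, and the diagonal marks equal levels. The re-aeration table shows 818 red points at the upper left and 61 blue points at the lower right, the oxygen table a band below the diagonal, and the panel of the dry seed regions 4105 red points above it.

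The direction in the re-aeration table turned with the level in nitrogen. Regions under 20% in nitrogen averaged 7.66% there and 66.4% ± 0.849 after re-aeration, and 552 of 557 tested regions were called higher. Regions between 20 and 50% averaged 32.4% and 71.8% ± 1.18, with 251 higher and 11 lower of 271. Regions between 50 and 80% averaged 62.8% and 51.5% ± 1.80, with 15 higher and 33 lower of 54, and those at 80% or more averaged 86.5% and 55.0% ± 1.89, with 0 higher and 17 lower of 19 (SD, n = 3 for each re-aeration mean). Whatever the start, the class means after re-aeration lay between 51.5% and 71.8%. These regions were picked for a difference between the same libraries, so low ones could mostly only rise and high ones mostly only fall. The turn was thus largely set by the picking, and nothing is read from it. The class and the difference also share the nitrogen libraries, so noise in nitrogen adds to this pattern. The next values lessen that noise but leave the picking in place. With the class taken from 1 nitrogen library and the difference from the other 2, the mean difference between 50 and 80% was -3.60, -2.06 and 0.0281 points instead of -11.3, whereas under 20% it stayed between 57.8 and 58.0 points beside 58.7.

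Among dry seed regions the gain shrank as the level in nitrogen rose. Regions higher in nitrogen had less room to rise, and the part of this in the pattern was not tested. The mean difference was 40.5 points under 20%, 24.96 between 20 and 50%, 10.5 between 50 and 80% and 0.859 at 80% or more, where 3 regions were called higher and 2 lower of 44. The calls were 1963 of 2224 higher and 0 lower in the lowest class, 1805 higher and 6 lower of 2683 in the next, and 334 higher and 12 lower of 922 between 50 and 80%. Classed by 1 nitrogen library, the mean difference from the other 2 was 12.7 to 14.5 points between 50 and 80%. At 80% or more it was 5.96 to 8.43 points, above the 0.859 given by the shared libraries. Regions put in that class averaged only 74.0%, 74.4% and 76.2% in the other 2 nitrogen libraries. These larger values are thus not for regions at 80% or more alone. Only in part did low regions become fully methylated: of those under 20% in nitrogen, 127 reached 80% or more after re-aeration, 1046 reached 50 to 80%, 946 reached 20 to 50% and 123 stayed under 20%. The highest gain of the top class, at chr1:27650493-27650587, had 92.9%, 74.1% and 75.5% in nitrogen and 96.2%, 94.98% and 97.4% after re-aeration, a difference of 15.3 points (adjusted p = 0.00759, quasi-binomial model, and 0.0572 with limma).

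The loss in the oxygen table was wider where nitrogen was higher. The mean difference was -0.18 points in the 13 regions under 20%, -11.8 between 20 and 50%, -15.6 between 50 and 80% and -17.98 at 80% or more, with 0, 48, 498 and 289 regions called lower of 13, 183, 1352 and 583. Regions low in nitrogen had less room to fall, and the slope of this pattern also carries the noise of the shared nitrogen libraries. With the class from 1 library and the difference from the other 2, the values were between -9.61 and -3.89 points under 20%. They were between -15.2 and -14.6 for 20 to 50% and between -16.8 and -16.3 for 80% or more. The classes thus lay closer together, but they also mixed levels. Regions classed under 20% by 1 library averaged 26.3%, 16.9% and 21.7% in the other 2. The part of that mixing in the narrowing was not tested. Of 583 regions at 80% or more in nitrogen, 531 were at 50 to 80% after re-aeration, 33 were still at 80% or more and 19 were at 20 to 50%.

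**Figure D3:**
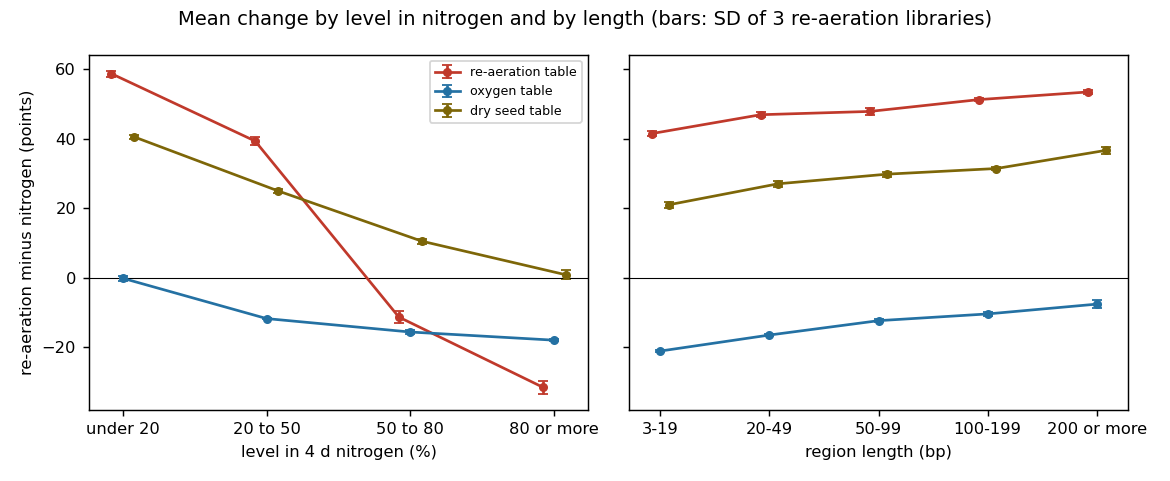
Mean re-aeration minus nitrogen level (points, y axis) by class of level in 4 d nitrogen (left, %) and by region length (right, bp), for the 3 tables; bars are the SD of the 3 re-aeration libraries around their mean. On the left the re-aeration table runs from 58.7 to -31.5 points, and on the right the loss of the oxygen table runs from -21.1 points in regions of 3 to 19 bp to -7.61 in those of 200 bp or more.

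Region length went with the change in the oxygen and dry seed tables, and in the re-aeration table it did so unevenly. In the re-aeration table the gained regions had a median of 50 bp and the lost ones 27 bp, and 412 of 818 gains but 14 of 61 losses were 50 bp or longer. The mean difference was 41.5 points in regions of 3 to 19 bp, with 118 called higher and 23 lower of 146, and 51.3 points in those of 100 bp to under 200 bp, with 63 higher and 3 lower of 67. The oxygen table had a mean difference of -21.1 points at 3 to 19 bp, -16.5 at 20 to 49 bp, -12.4 at 50 to 99 bp, -10.4 from 100 bp to under 200 bp and -7.61 in the 14 regions of 200 bp or more. Over the same classes the dry seed table had 21.0, 27.02, 29.8, 31.4 and 36.6 points, and 47.7% to 85.5% of regions were called higher.

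The change with region length was set against the spread of the libraries as a difference of differences. In each library the mean level of regions shorter than 50 bp was subtracted from that of longer ones. For the dry seed table this contrast was 2.27, 2.22 and 2.01 points in nitrogen and 7.84, 7.12 and 6.87 points after re-aeration, so the change was 5.11 points larger in long regions. For the oxygen table it was -6.15, -6.14 and -5.98 in nitrogen and 0.311, 0.738 and 0.879 with air restored, a difference of 6.73 points. Long and short regions of the oxygen table were thus unequal in nitrogen and nearly equal after re-aeration. The re-aeration table had contrasts of -1.36, -2.13 and -1.55 in nitrogen and 1.07, 2.26 and 1.83 with air restored, a difference of 3.398 points. The groups did not overlap in any table, and the exact two-sided permutation p was 0.1 in each, the smallest possible. Within classes of nitrogen level the re-aeration table did not keep this direction throughout. Under 20%, where 550 of its 888 regions lay, the mean difference was 60.1 points in the 290 shorter regions and 57.2 in the 260 longer ones. Between 20 and 50% it was 37.9 and 40.4 points, and between 50 and 80%, with 33 and 21 regions, it was -22.3 and 5.99 points. Short regions carried fewer reads. In the re-aeration table the median per library was 48.8 at 3 to 19 bp and 213 at 50 to 99 bp. The nitrogen libraries took part in picking the oxygen and re-aeration regions, so their length contrasts are not independent of the picking. The parts of read number and of the picking in the change with length were not tested.

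The number of reads moved with the change in level. In the re-aeration table the median log2 ratio of reads, re-aeration over nitrogen, was -0.22 in the 31 regions that were 30 points or more lower and 1.02 in the 115 that were 70 points or more higher. In the latter, unmethylated reads per region and library went from 81.3 to 34.3 and methylated reads from 4.53 to 160. Both sides of the level therefore moved, the methylated reads by more. For the dry seed regions the median log2 ratio was -0.06 between -10 and 10 points, 0.61 between 30 and 50 points and 1.67 at 70 points or more, where unmethylated reads went from 73.0 to 44.3 and methylated reads from 4.12 to 202. For the oxygen regions it was -0.27 in the 1463 regions between -30 and -10 points and -0.23 in the 522 between -10 and 10 points. It was -0.34 in the 138 regions that were 30 points or more lower and 0.28 in the 8 regions between 10 and 30 points.

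Gains were also counted where the read numbers of the groups were close. In 1829 regions of the dry seed table whose log2 read ratio lay within 0.25 of 0, the mean level was 30.8% ± 0.497 in nitrogen and 48.7% ± 0.516 after re-aeration (SD, n = 3 each), 991 were called higher (54.2%) and 12 lower. The share called higher was thus below the 69.9% of the whole table, and the mean difference was 17.9 points beside 28.3 over all regions. The same selection left 984 regions of the oxygen table, with 380 called lower (38.6%) and a mean difference of -15.3 points, and 200 regions of the re-aeration table, with 165 called higher (82.5%, beside 90.8%) and 26 lower and a mean difference of 32.8 points beside 46.8. In the re-aeration and dry seed tables the read ratio rose with the gain, so the selection left out large gains more often than small ones. The lower shares and differences there are thus not independent of the selection. This selection was made after the values were seen.

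**Figure D4:**
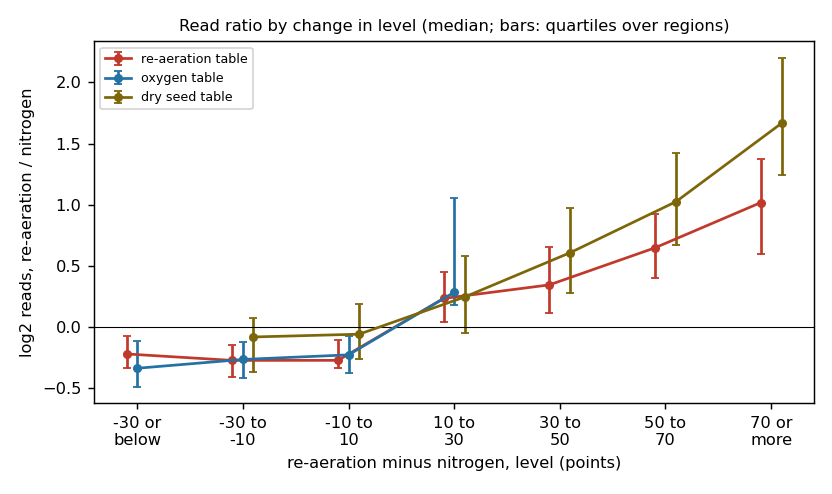
Median log2 ratio of reads, re-aeration over nitrogen (y axis), in classes of the difference in methylation level (x axis, points), for the 3 tables; bars span the quartiles over regions. The ratio runs from -0.27 to 1.02 in the re-aeration table and from -0.08 to 1.67 in the dry seed table. It is -0.34 to -0.23 for the losses and small differences of the oxygen table. In the 3 lowest classes of the re-aeration table it is -0.22, -0.27 and -0.27.

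The re-aeration libraries varied more among themselves than the nitrogen libraries in the tables with gains. Between pairs of re-aeration libraries the median absolute difference of a region's level was 9.57 to 10.7 points in the re-aeration table, against 3.47 to 3.88 between nitrogen libraries. The dry seed regions had 8.80 to 9.11 against 5.03 to 5.22 points. The groups were closer in the oxygen table, 6.53 to 6.89 against 5.50 to 5.69 points. A gained region of the re-aeration table had a median SD of 3.13 points in nitrogen and 8.84 points after re-aeration, and a lost region 6.35 and 8.43 points. Levels near 0 leave little room for spread, and the part of this in the difference was not tested.

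Gains were found on all 12 chromosomes and along their whole span, and the few losses of the re-aeration table were spread less evenly than its gains. By chromosome, the share of regions called higher was 85.0% (chromosome 9) to 94.0% (chromosome 7) in the re-aeration table and 65.8% (chromosome 2) to 76.4% (chromosome 12) in the dry seed table. The share called lower in the oxygen table was 35.4% (chromosome 11) to 47.96% (chromosome 10). The stretch of each chromosome spanned by the regions of the 3 tables was split into 10 equal parts, and each part held 8.46% to 12.7% of the gains of the re-aeration table. Its 61 losses numbered 7, 9, 4, 4, 4, 1, 3, 8, 10 and 11 in parts 1 to 10, among 80, 113, 83, 81, 87, 96, 94, 89, 84 and 93 regions. In parts 1 to 5 and 8 the share of the losses was closer to that of all regions than in parts 6, 7, 9 and 10. The losses numbered only 1 to 11 per part, and whether they were less even than the gains was not tested. Dry seed regions had a mean difference of 32.3 points in part 5 and 24.7 in part 10, and in the oxygen table it stayed between -16.3 and -14.4 points. A pair of regions of the re-aeration table lay on a sequence that the tables name S and do not explain, and both were called higher.

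**Figure D5:**
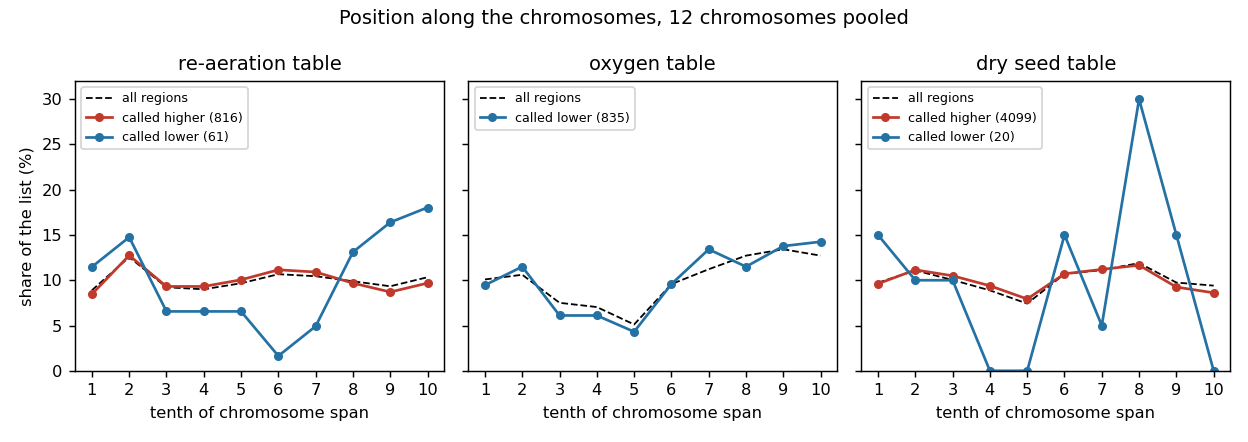
Share of each list of regions (%, y axis) in each of 10 equal parts of the chromosome span (x axis, numbered along the chromosome, 12 chromosomes pooled), in 3 panels for the 3 tables; the dashed line is all regions of the table, red the regions called higher and blue those called lower, with their numbers. The 61 losses of the re-aeration table put 18.03% in part 10 and 1.64% in part 6, while the gains follow the dashed line; the 20 losses of the dry seed table are too few to show a course.

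Neighbouring regions of a table mostly had differences of the same sign. Of 34 neighbouring pairs of the re-aeration table no more than 10 kb apart, 31 were both higher and 3 opposite. Of 242 pairs of the oxygen table, 232 were both lower and 10 opposite, and of 1300 pairs of the dry seed table, 1141 were both higher, 2 both lower and 156 opposite. With 90.8% of the re-aeration table called higher and nearly all oxygen differences below 0, most pairs would share a sign whatever their distance, and no test was made. The dry seed table had 563 runs of 2 or more called regions with gaps of 10 kb or less, the largest with 5 regions, and 6 runs held calls of both directions.

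The largest run of the re-aeration table held both directions within about 1 kb of chromosome 5. At chr5:27142388-27142395 the nitrogen libraries had 10.5%, 14.0% and 16.3% and the re-aeration libraries 61.0%, 32.3% and 75.2%, a difference of 42.6 points (adjusted p = 0.00817, quasi-binomial model). The loss that followed at chr5:27142533-27142548 went from 93.5%, 87.7% and 94.7% to 61.1%, 56.0% and 64.7%, a difference of -31.4 points (adjusted p = 0.00072, quasi-binomial model). The last, at chr5:27143325-27143417, had 3.63%, 13.0% and 3.77% in nitrogen and 76.2%, 80.3% and 83.6% after re-aeration, a difference of 73.2 points (adjusted p = 4.97e-05, quasi-binomial model). The nitrogen and re-aeration libraries did not overlap in any of the 3 regions. The dry seed table holds a longer region around the first, chr5:27142365-27142501, with 38.8%, 36.4% and 38.8% in nitrogen and 54.0%, 45.2% and 59.1% after re-aeration.

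A loss and a gain also lay side by side on chromosome 1, around the longest loss of the oxygen table. The 3 oxygen regions at chr1:26905319-26905415, chr1:26905549-26905977 and chr1:26906185-26906498 were called lower by 15.9, 15.1 and 14.4 points. The last of them had 73.0%, 66.9% and 67.9% in nitrogen and 53.0%, 55.5% and 56.0% after re-aeration. After a gap of 75 bp, the region of the re-aeration table at chr1:26906574-26906811 had 4.93%, 8.36% and 8.57% in nitrogen and 54.8%, 54.9% and 53.1% after re-aeration, a difference of 46.99 points (adjusted p = 2.19e-05, quasi-binomial model). Regions on both sides of the gap thus differed by more than 50 points in nitrogen and stood at nearly the same level after re-aeration. This place was chosen after its values were seen.

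The gains and the losses of the re-aeration table fell on different regions of the other tables. At an overlap of 1 bp or more, 720 of the 818 gains (88.0%) overlapped a region of the dry seed table, which is 12.2% of that table, and 0 of the 61 losses did. Of the 61 losses 8 (13.1%), and of the 818 gains 1 (0.122%), overlapped the oxygen table. Over all 902 regions of the re-aeration table, 732 (81.2%) overlapped the dry seed table and 10 (1.11%) the oxygen table. Dry seed regions averaged 29.4% in nitrogen and oxygen regions 70.1%, so this split is not independent of how the tables were picked. The dry seed regions that overlapped a gain averaged 68.7% ± 1.62 in the dry seed (SD, n = 3). They averaged 19.9% ± 0.652 in nitrogen and 67.0% ± 0.690 after re-aeration (SD, n = 3 each). Outside them, 5176 dry seed regions had no counterpart in the re-aeration table, and these averaged 30.6% ± 0.694 in nitrogen and 56.8% ± 0.738 after re-aeration (SD, n = 3 each). The quasi-binomial model called 3383 of the 5141 tested among them higher (65.8%) and 20 lower, so gains were not limited to regions the authors listed for re-aeration.

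The 10 places listed in both the re-aeration and the oxygen tables, named after their values were seen, were mostly losses. At chr3:4168410-4168469, with identical ends in both tables, the nitrogen libraries had 91.0%, 83.9% and 84.7% and the re-aeration libraries 67.7%, 63.1% and 54.8%, beside 59.9% ± 2.42 in 4 d air (SD, n = 3). At chr11:3047293-3047326 the nitrogen libraries had 85.6%, 83.8% and 86.6% and the re-aeration libraries 60.5%, 51.8% and 53.7%, a difference of -30.02 points (adjusted p = 0.000268, quasi-binomial model). Neither place overlapped between groups. The exception was chr7:24779402-24779503, with 15.6%, 7.45% and 42.3% in nitrogen and 77.3%, 80.9% and 83.9% after re-aeration, a difference of 58.9 points (adjusted p = 0.00144, quasi-binomial model). The oxygen region that overlaps it in part, chr7:24779483-24779557, had 51.1%, 66.9% and 74.7% in nitrogen and 69.2%, 80.2% and 74.9% after re-aeration, where the groups overlapped and the region was not called.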

How the data were processed

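Per the labels' protocols, MethylC-seq libraries were made from coleoptile or embryo genomic DNA with lambda DNA added. Regions picked as differentially methylated were deposited by the authors with, per library, whole-number total read counts. The deposited methylated values were taken as estimated counts: dividing them by a library's factor, between 0.9977 and 0.9983, left whole numbers (100% of values, within 0.01). The deposited percent is the methylated value over the total, written as 0 where the total is 0 (treated as missing). The deposited dry seed table also holds a count of differing sites, used only for a median in the closing observations. The sources used here name no aligner, caller, filter or build. Of the per-library columns 0 were left out.

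Methylated values were rounded and fitted per region with a quasi-binomial logistic model with a term per group over all groups of the table (9 coleoptile libraries, or 18 in the dry seed table), a dispersion of at least 1 and an F test, in Python 3.11.15 with scipy 1.17.1. All groups of a table shared 1 dispersion per region. The re-aeration libraries varied more than the nitrogen libraries in the tables with gains, so the p-values of the model may be too small there. Libraries under 10 reads were left out of a region, and 2 libraries per group were needed. p-values were adjusted over each table by Benjamini-Hochberg. The model was also run on simulated reads of intermediate level with the same dispersion in every group. That run does not cover very low or very high levels, or an unequal spread of the groups. limma 3.58.1 on the levels was an alternative. Named regions were, per table, direction and class of nitrogen level, the largest called difference with 30 or more reads in each of the 6 libraries, the longest called regions, the largest run of the re-aeration table, and regions shared between tables. The members, classes and lists were chosen with earlier results of these data known. Deviations of same-numbered libraries from their group means had correlations between -0.0492 and 0.0487. Values this small neither show nor exclude a pairing by number, and the main fit did not pair the libraries.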

Additional observations from a re-analysis of the deposited data

How the results depend on the processing

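Of the 49 named regions, 36 kept their side of the threshold in all 11 alternatives and 0 changed direction; 11 lost it in some and 2 that were not called became called. Counts of the re-aeration table and gains of the dry seed table stayed within 1.5 times, and the differences in mean level and by length kept their direction in the alternatives listed for them (read minimum, weighting, length limit, left-out libraries). Within classes of nitrogen level the length contrast of the re-aeration table did not keep it: under 20% the shorter regions had the larger difference, 60.1 against 57.2 points. Losses of the oxygen table numbered 404 at 20 points or more, 420 where the spread came from the compared groups and 197 to 324 when a library was left out. Its gains numbered 2 with no minimum difference and 1 with limma. Losses of the dry seed table numbered 4 at 20 points or more and 12 where it came from the compared groups. Neighbouring pairs of the dry seed table within 1 kb shared a sign in 90.5%, beside 88.0% within 10 kb. With the replicate number as a block, the oxygen table had 329 losses; no library pairing is given by the labels, the same number did not go with the highest correlation for every library in any table, and the block changed no other count by over 1.5 times.

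With the class from 1 nitrogen library and the difference from the other 2, values moved as follows, in points. In the re-aeration table they were 57.8 under 20%, 43.2 for 20 to 50%, -3.60, -2.06 and, with the sign turned, 0.0281 for 50 to 80%, and -21.3 and -34.8 at 80% or more. In the oxygen table they were -9.61, -6.05 and -3.89 under 20%, -15.2, -14.6 and -14.99 for 20 to 50%, and -16.7, -16.3 and -16.8 at 80% or more. In the dry seed table they were 38.8, 39.4 and 38.8 under 20%, 25.8 for 20 to 50%, 12.8, 14.5 and 12.7 for 50 to 80%, and 7.78, 8.43 and 5.96 at 80% or more. The alternative itself takes the shared noise out of the class, but a class from 1 library also holds regions of other levels.

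Only regions the authors listed were measured, so regions with no change are not represented, and the level of the genome as a whole is not known. With 3 libraries per group an exact test cannot go below 0.1. Regions under 20 bp rest on few reads.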

Other observations

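Losses of the oxygen table and regions of the dry seed table were close neighbours in some places. Of the 835 oxygen regions called lower, 72 had a region of the dry seed table within 1 kb. The share of all oxygen regions with such a neighbour is not given here, so nothing about losses is read from this count. The neighbours were 74 regions in all, of which 44 were called higher after re-aeration and 1 lower. Of all tested dry seed regions, 69.9% were called higher. In the dry seed table the gained regions held a median of 9 differing sites, as the authors counted them, and the 20 lost regions a median of 3. These are descriptions with no test.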
